A study of Mus musculus with 16 samples.

Results

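The genes of cholesterol synthesis, intracellular transport and efflux were followed in mouse retina by a list of 32 genes. Each gene was read from the brightest probe set annotated to its symbol alone, by mean log2 intensity over 16 arrays. Of the 32 genes, 30 had such a probe set, among 18193 genes of the array that had one. A probe set was tested if it lay above log2 4 on at least 2 arrays, which held for all 30 members and for 10916 genes in all. Acat2 and Soat1 had no probe set annotated to that one symbol and were not analysed here. The list holds no lipoprotein receptor, so uptake is covered only by the lysosomal exit of cholesterol and by a wider list of pathway genes described further on.

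The study compared BALB/c mice of the genotypes Nxnl1+/+ (wild type) and Nxnl1-/- (knockout), all raised in a cycle of 12 h of light at 50 lux and 12 h of darkness. Males and females in equal numbers, 11 to 16 weeks old, were kept in darkness for 16 h, placed 1 per cage under white fluorescent light for 1 h, and returned to darkness for 24 h. The light was 50, 2500 or 5000 lux, so the reference groups had also been moved through darkness and light, at their rearing intensity. The wild-type groups had 2, 3 and 3 arrays at 50, 2500 and 5000 lux, and the knockout groups 3, 3 and 2. The labels call the samples biological replicates without giving the number of animals behind each. The series' own design text counts 2 doses in triplicate, which differs from the 3 doses and the 2 or 3 arrays labelled. The tissue was whole neural retina, dissected away from the pigment epithelium, so the values average over all its cell types. In such bulk tissue, fewer cells of a type and less RNA per cell cannot be told apart.

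Nxnl1, the targeted gene, lay between log2 5.64 and 7.61 on the 8 wild-type arrays and between 2.21 and 2.92 on the 8 knockout arrays. The labels and tables used here do not say which part of the gene was deleted. Several arrays carried signal of marker genes of neighbouring tissue. The summed intensity of 10 lens marker genes was 72440 on wild-type 5000 lux replicate 2 and between 61.5 and 176 on the other 7 wild-type arrays. In knockout retinas it was 7832, 2561 and 1925 on the 3 arrays at 50 lux, 206.5, 6947 and 186.9 at 2500 lux, and 101.2 and 4484 at 5000 lux. The 4 arrays above 4000, named lens-bearing below by these sums alone, were left out in an added analysis. This left 1 knockout array at 5000 lux, assumed to vary like the other groups. The added analysis kept the knockout 50 lux arrays at 2561 and 1925. Lens marker signal was thus reduced but not removed in that reference group, and its source was not tested. The summed intensity of 9 pigment epithelium markers in wild-type retinas was 14030 and 10020 at 50 lux, 6229 to 10890 at 2500 lux and 3710 to 5391 at 5000 lux. The knockout sums were 6518 to 12590, 4152 to 8132, and 5001 and 5188 at these doses. That of 8 microglia and macrophage markers was 698.8 and 650.0 on the wild-type arrays at 50 lux and 2197 to 3476 on the 6 wild-type arrays at the higher doses. In knockout retinas the microglia sum was 946.8 to 1293 at 50 lux, 3115 to 3679 at 2500 lux and 2095 and 2115 at 5000 lux. The 12 rod markers summed to between 164100 and 182700 on the 5 arrays at 50 lux and to between 113000 and 146200 on the other 11. Lgals3, a galectin gene of macrophages and other cells, made up 53.9% to 78.3% of the microglia sum on the arrays at the higher doses and 5.58% to 10.7% at 50 lux. Without Lgals3 the other 7 markers summed to 601.8 to 623.8, 867.2 to 1009 and 583.3 to 1059 in wild-type retinas and to 894.1 to 1167, 719.2 to 973.3 and 486.4 to 965.8 in knockout retinas at 50, 2500 and 5000 lux. Cd68 was at or below log2 3.27 on the 5 arrays at 50 lux and between 4.83 and 6.36 on the others. The defining microglial marker Cx3cr1 stood at the same log2 4.19 on 11 of 16 arrays, a background level that shows no change either way. These marker levels moved with light dose or with single arrays beside the results that follow, and their part in those results was not tested except where an array was left out.

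**Figure D1:**
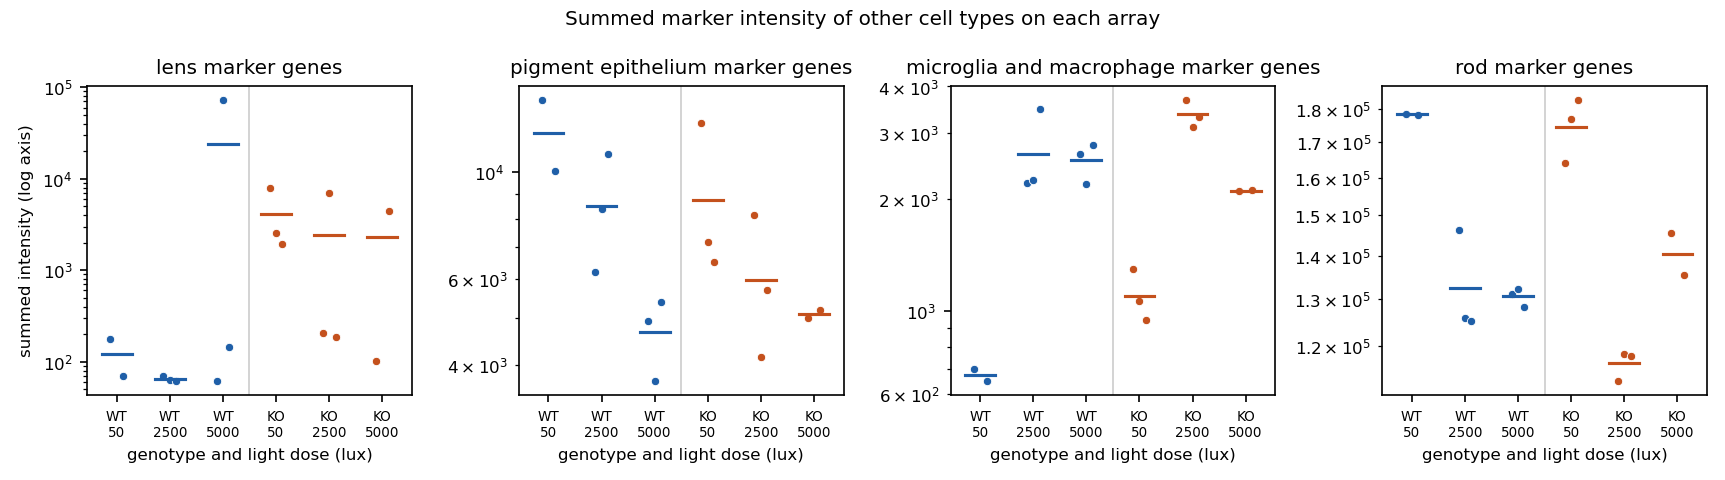
Summed intensity (log axis) of marker genes of lens, pigment epithelium, microglia and macrophages, and rods on each array, by genotype (WT wild type, KO knockout) and light dose in lux. Points are arrays and bars are group means; 1 wild-type array at 5000 lux stood at 72440 for lens, and the microglia sums, most of them Lgals3 at the higher doses, were lowest in both genotypes at 50 lux.

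Cells build cholesterol from acetyl units through mevalonate and squalene. SREBP transcription factors switch on the enzymes when sterols are scarce, and the Insig proteins hold SREBP in the endoplasmic reticulum when sterols are plentiful. Surplus cholesterol leaves through ABC transporters onto apolipoproteins such as apoE, whose genes are switched on by the oxysterol receptor LXR together with its partner RXR, or is oxidised by the enzymes CYP27A1 and CYP46A1. The retina both makes cholesterol and takes it from the blood through the pigment epithelium. Müller glia make and secrete apoE, and photoreceptors renew the membranes of their outer segments every day.

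The promoter sequences of 3 synthesis genes are shown because their transcripts behaved differently on these arrays: Ebp was higher after bright light, Tm7sf2 lower in knockout retinas, and Hmgcs1, the textbook SREBP target, was not called on its brightest probe set. Each is the 250 bases before the annotated RefSeq start in build GRCm38.p6, written 5′ to 3′ on the gene's strand. They lie at chrX:8193513-8193762 (Ebp, minus strand), chr19:6067851-6068100 (Tm7sf2, minus strand) and chr13:119690101-119690350 (Hmgcs1, plus strand). Capitals mark CCAAT, the NF-Y motif (read as ATTGG where it lies on the other strand), and the SREBP motifs TCACNCCA and CACCCCAC, which overlap in Hmgcs1 as 1 run.
Ebp: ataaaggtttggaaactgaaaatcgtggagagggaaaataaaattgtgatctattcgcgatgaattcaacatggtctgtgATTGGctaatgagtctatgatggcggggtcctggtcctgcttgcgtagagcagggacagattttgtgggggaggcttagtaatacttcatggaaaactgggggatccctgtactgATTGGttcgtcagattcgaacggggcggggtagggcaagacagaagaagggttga
Tm7sf2: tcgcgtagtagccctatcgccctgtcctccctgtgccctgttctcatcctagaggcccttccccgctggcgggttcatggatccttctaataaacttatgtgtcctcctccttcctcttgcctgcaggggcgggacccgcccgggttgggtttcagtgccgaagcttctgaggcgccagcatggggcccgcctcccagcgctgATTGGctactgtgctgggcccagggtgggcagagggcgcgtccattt
Hmgcs1: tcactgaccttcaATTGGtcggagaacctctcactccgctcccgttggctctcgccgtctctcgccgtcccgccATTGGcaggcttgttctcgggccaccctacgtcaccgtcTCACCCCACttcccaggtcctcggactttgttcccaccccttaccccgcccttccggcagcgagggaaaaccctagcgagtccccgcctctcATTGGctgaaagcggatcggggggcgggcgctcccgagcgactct
Ebp held CCAAT beginning 170 and 55 bases before the start, Tm7sf2 held it at 47, and Hmgcs1 at 237, 176 and 45, besides the SREBP motif at 137. Of the 30 members, 24 had promoter windows in the RefSeq table, 33 windows in all, and both strands were searched. TCACNCCA lay in 4 of the 33 windows (12.1%), in Hmgcs1, Msmo1, Srebf2 and 1 of 3 windows of Apoe, and in 3.67% of all 32851 windows. CACCCCAC lay in 3.03% of member windows and in 2.58% of all. CCAAT lay in 23 windows (69.7%), against 33.8% of all, and those of Ebp and Tm7sf2 and 1 of 2 windows of Pmvk were among them. The LXR motif AGGTCA lay in 15.2% of member windows and 14% of all. Its exact direct repeat after a spacer of 4 bases was in none of the member windows, Abca1 included, and in 0.0152% of all. A repeat this rare would seldom be met in 33 windows, so its absence does not show that LXR sites are lacking. A match is a run of letters and does not show that a factor binds there. No window was in the table for Abcg1, Fdft1, Fdps, Npc1, Sqle and Stard4, and the 2 windows of Pmvk are not printed.

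Bright light changed a small part of the list, and 2 synthesis genes, Pmvk and Ebp, were higher in all 4 light responses. In the text a gene is called when its Benjamini-Hochberg adjusted p over all 23320 probe sets tested, from a linear model in limma, was below 0.05. In wild-type retinas at 2500 lux 3 of 30 members were called higher (Pmvk, Ebp, Stard4) and 1 lower (Apoe), where 8.93% of all tested genes were higher and 5.13% lower. At 5000 lux 2 wild-type members were higher (Pmvk, Ebp) and 2 lower (Dhcr7, Srebf1), against 7.56% and 5.27% of all genes. In knockout retinas at 2500 lux 3 were higher (Pmvk, Ebp, Abca1) and 4 lower (Tm7sf2, Sc5d, Apoe, Cyp27a1), against 8.87% and 13.5% of all genes. At 5000 lux 2 knockout members were higher (Pmvk, Ebp) and 3 lower (Tm7sf2, Apoe, Cyp27a1), against 4.60% and 7.81%. These shares lie near the background of each comparison and are no result about the list as a whole. The median log2 change of the 30 members was 0.09 and 0.06 in wild-type retinas, where that of all genes was 0.04 and 0.0040, and -0.11 and -0.16 in knockout retinas, where it was -0.08 and -0.09 for all genes. With 1 array left out, the members' medians ran from 0.07 to 0.16 and from 0.0034 to 0.06 in wild-type and from -0.20 to -0.07 and from -0.26 to -0.09 in knockout retinas. The 4 light responses share their 50 lux arrays within a genotype, so calls at both doses of 1 genotype are not independent. The lower counts changed when single arrays were left out. The 3 lower members at 5000 lux in knockout retinas became 0 without knockout 5000 lux replicate 2, 1 without knockout 50 lux replicate 1, and 5 without knockout 5000 lux replicate 1. The 2 lower members at 5000 lux in wild-type retinas became 0 without either wild-type 50 lux array or without 5000 lux replicate 1 or 3, and 1 without wild-type 2500 lux replicate 1, knockout 50 lux replicate 3 or any knockout 2500 lux array. The 1 lower member at 2500 lux in wild-type retinas was lost without either 50 lux array, wild-type 2500 lux replicate 2 or knockout 2500 lux replicate 2. The count was 2 without knockout 2500 lux replicate 1, and 2 without wild-type 2500 lux replicate 3, where Apoe was not among them. The 4 lower knockout members at 2500 lux became 2 without knockout 2500 lux replicate 2.

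**Figure D2:**
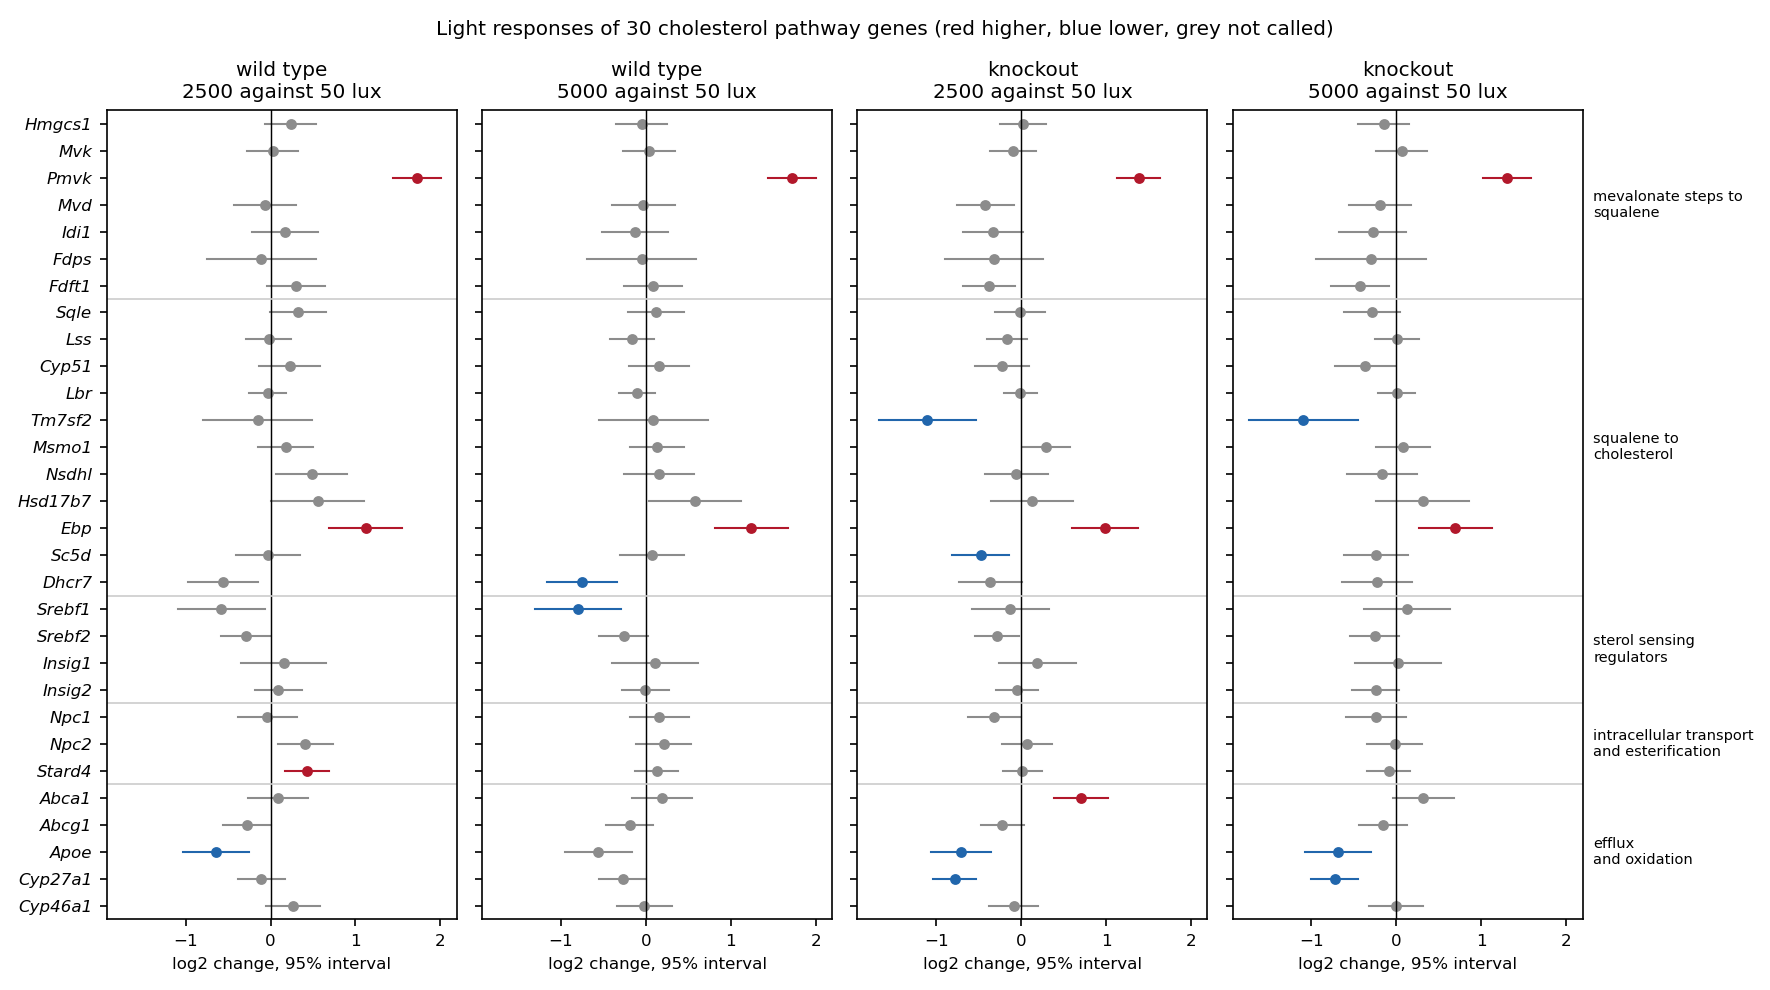
Log2 change of each of the 30 genes after 2500 or 5000 lux against 50 lux in each genotype, with 95% intervals from the fit, unadjusted for the number of genes; genes are grouped by role. Red points were called higher, blue lower, grey not called; Pmvk and Ebp are the points far to the right in every panel, apart from Ebp at 5000 lux in the knockout, whose change was 0.69.

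The mevalonate steps, which run from acetyl units to squalene, had 7 measured members, of which only Pmvk was called in any of the 4 light responses. Pmvk encodes phosphomevalonate kinase, the enzyme that adds the second phosphate to mevalonate. In wild-type retinas its log2 level was 7.95 and 8.06 at 50 lux, 9.82, 9.59 and 9.78 at 2500 lux, and 9.81, 9.75 and 9.62 at 5000 lux. The knockout levels were 8.53, 8.33 and 8.22 at 50 lux, 9.93, 9.68 and 9.63 at 2500 lux, and 9.75 and 9.57 at 5000 lux. All 11 arrays at the higher doses lay above all 5 arrays at 50 lux, by at least 1 log2 unit, and the higher doses overlapped one another. The log2 change was 1.72 (SE 0.13, limma adjusted p = 2.55e-06) at 2500 lux and 1.72 (SE 0.13, limma adjusted p = 2.34e-06) at 5000 lux in wild-type retinas, a 3.30-fold rise at each dose. In knockout retinas it was 1.38 (SE 0.12, limma adjusted p = 4.33e-06) at 2500 lux, 2.61-fold, and 1.30 (SE 0.13, limma adjusted p = 6.88e-05) at 5000 lux, 2.46-fold. The rise was called under all 26 alternative settings tried in each of the 4 comparisons, and was 1.71 in wild-type and 1.47 in knockout retinas at 5000 lux without the 4 lens-bearing arrays. Knockout retinas started 0.36 higher at 50 lux (SE 0.13, limma adjusted p = 0.254) and responded by 0.34 less at 2500 lux (95% interval -0.72 to 0.04) and by 0.42 less at 5000 lux (-0.82 to -0.02), neither called (limma adjusted p = 0.584 and 0.60). Pmvk has 1 probe set, so the rise was not read a second time on the array.

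The other 6 mevalonate genes were not called on their brightest probe set. Hmgcs1, which encodes the synthase that makes HMG-CoA, averaged log2 11.23 ± 0.11 (SD, n = 2) on the 50 lux wild-type arrays, 11.47 ± 0.16 (SD, n = 3) after 2500 lux and 11.19 ± 0.20 (SD, n = 3) after 5000 lux, and its changes ran from -0.15 to 0.24 over the 4 responses. Its 4 brighter probe sets were not called in any light response. The dimmest of its 5 probe sets was called higher in knockout retinas, by 0.83 at 2500 lux (limma adjusted p = 0.0325) and 1.09 at 5000 lux (limma adjusted p = 0.0254), so the probe sets of this gene disagree. In knockout retinas this dim probe set read 4.40, 4.44 and 4.70 at 50 lux, and 4.95 and 6.26 at 5000 lux. Its change at 5000 lux thus lay mostly on knockout replicate 2, a lens-bearing array. Fdft1, which encodes squalene synthase, changed by 0.30 and 0.08 in wild-type retinas and by -0.38 and -0.43 in knockout retinas (limma adjusted p = 0.0812 and 0.0919 in the latter). Mvd, mevalonate diphosphate decarboxylase, changed by -0.42 in knockout retinas at 2500 lux (limma adjusted p = 0.0728), and its dimmer probe set was called there, lower by at least 1.46-fold. Mvk, Idi1 and Fdps, which encode mevalonate kinase, isopentenyl diphosphate isomerase and farnesyl diphosphate synthase, changed by between -0.33 and 0.17. Both wild-type 50 lux arrays read the same log2 5.44 for Mvk and the same 5.51 for Mvd (SD 0). Small changes of Mvk and Mvd were therefore not resolved on their brightest probe sets. The brightest probe sets of Hmgcs1, Fdft1 and Hsd17b7 are of a type whose probes can bind related transcripts, so their levels may hold more than 1 transcript.

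Between squalene and cholesterol, 11 genes were measured and 4 were called in at least 1 response: Ebp higher, and Tm7sf2, Sc5d and Dhcr7 lower. Ebp encodes the sterol isomerase that moves the double bond of the sterol ring. Its log2 level in wild-type retinas was 7.96 and 7.71 at 50 lux, 8.97, 8.67 and 9.24 at 2500 lux, and 9.25, 8.92 and 9.06 at 5000 lux. The knockout arrays read 8.57, 8.18 and 8.01 at 50 lux, 9.50, 9.05 and 9.18 at 2500 lux, and 9.0 and 8.89 at 5000 lux. Every array at the higher doses lay above every 50 lux array of either genotype, and the knockout array at 8.57 came closest. Ebp rose 2.18-fold at 2500 lux (log2 1.12, SE 0.20, limma adjusted p = 0.00249) and 2.36-fold at 5000 lux (log2 1.24, SE 0.20, limma adjusted p = 0.00122) in wild-type retinas. In knockout retinas it rose 1.98-fold at 2500 lux (log2 0.99, SE 0.18, limma adjusted p = 0.00163) and 1.62-fold at 5000 lux (log2 0.69, SE 0.20, limma adjusted p = 0.0404). The first 3 of these calls held under all 26 alternatives. The last held under 13 of 26. It was lost, at values between 0.57 and 0.75, without any 1 of 9 arrays: both wild-type 50 lux arrays, wild-type 2500 lux replicate 1, wild-type 5000 lux replicate 3, knockout 50 lux replicates 2 and 3, knockout 2500 lux replicate 3 and both knockout 5000 lux arrays. Without the 4 lens-bearing arrays it was 0.91 (limma adjusted p = 0.127). The responses of the 2 genotypes differed by -0.13 at 2500 lux (95% interval -0.71 to 0.44) and by -0.55 at 5000 lux (-1.15 to 0.06), knockout minus wild type, neither called.

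Tm7sf2 and Lbr both encode sterol reductases for the step after lanosterol demethylation, and Tm7sf2 was called while Lbr was not. Tm7sf2 in wild-type retinas read 5.38 and 5.42 at 50 lux, 5.82, 4.79 and 5.13 at 2500 lux, and 5.31, 5.53 and 5.62 at 5000 lux. Knockout retinas gave 6.44, 5.93 and 6.20 at 50 lux, 5.46, 4.72 and 5.09 at 2500 lux, and 5.47 and 4.71 at 5000 lux. The 3 knockout arrays at 50 lux were higher than all other 13 arrays, which overlapped among themselves. Tm7sf2 thus fell 2.15-fold at 2500 lux (log2 -1.10, SE 0.27, limma adjusted p = 0.0107) and 2.14-fold at 5000 lux (log2 -1.10, SE 0.30, limma adjusted p = 0.0321) in knockout retinas. In wild-type retinas its changes were -0.15 (95% interval -0.79 to 0.49) and 0.09, not called. The genotype difference in response was -0.95 at 2500 lux (limma adjusted p = 0.527) and -1.19 at 5000 lux (limma adjusted p = 0.553), so the fall was not shown to be particular to the knockout. At 50 lux the knockout level was 0.79 higher (SE 0.30, limma adjusted p = 0.259). Without the 4 lens-bearing arrays the falls were -0.79 and -0.60 (limma adjusted p = 0.126 and 0.496). The call at 2500 lux was lost without knockout 2500 lux replicate 2 (log2 -0.92, limma adjusted p = 0.0536). The call at 5000 lux was lost without knockout 50 lux replicate 1 or 3 or knockout 5000 lux replicate 2, with values from -1.10 to -0.72. Lbr lay between 9.33 and 9.64 on all 16 arrays and its changes ran from -0.10 to 0.00079.

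Dhcr7 and Sc5d act late in the pathway, on the sterol ring just before cholesterol is complete. Dhcr7, which encodes 7-dehydrocholesterol reductase, read 7.81 and 7.74 at 50 lux, 7.01, 7.10 and 7.54 at 2500 lux, and 6.99, 7.11 and 6.98 at 5000 lux in wild-type retinas. The knockout arrays read 7.95, 7.51 and 7.73 at 50 lux, 7.0, 7.55 and 7.54 at 2500 lux, and 7.44 and 7.56 at 5000 lux. The wild-type groups at 50 and 5000 lux did not overlap, and 1 knockout array at 2500 lux was as low as the wild-type ones. Dhcr7 fell 1.68-fold at 5000 lux in wild-type retinas (log2 -0.75, SE 0.19, limma adjusted p = 0.0232), and its changes in the other 3 responses, -0.56, -0.36 and -0.23, were not called. The call was lost without either wild-type 50 lux array or wild-type 5000 lux replicate 1 or 3 (log2 -0.78 to -0.71, limma adjusted p = 0.0585 to 0.161), and without the 4 lens-bearing arrays (log2 -0.79, limma adjusted p = 0.0525). Sc5d, the sterol C5 desaturase, read 8.26, 8.05 and 8.11 at 50 lux, 7.88, 7.66 and 7.46 at 2500 lux and 8.05 and 7.76 at 5000 lux in knockout retinas. In wild-type retinas it read 7.98 and 7.81 at 50 lux, 8.0, 8.10 and 7.51 at 2500 lux, and 7.96, 8.05 and 7.90 at 5000 lux. It fell 1.39-fold at 2500 lux in knockout retinas (log2 -0.47, SE 0.16, limma adjusted p = 0.0487), but the next brightest probe set changed by 0.11 (limma adjusted p = 0.764), so the direction depends on the probe set. The call was lost without any 1 of 11 arrays (log2 -0.52 to -0.37): both wild-type 50 lux arrays, wild-type 2500 lux replicate 1, and all 3 arrays each of wild-type 5000 lux and knockout 50 lux, as well as knockout 2500 lux replicates 2 and 3.

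The other 6 genes of this stretch, besides Lbr, were not called in any light response. Sqle, which encodes squalene epoxidase, changed by 0.32 and 0.12 in wild-type and by -0.01 and -0.29 in knockout retinas. Cyp51, lanosterol demethylase, changed by 0.22 and 0.15 in wild-type and by -0.23 and -0.37 in knockout retinas. Hsd17b7, the 3-ketosteroid reductase of the pathway, had the largest positive changes among members not called in wild-type retinas, 0.56 at 2500 lux (SE 0.25, limma adjusted p = 0.191) and 0.58 at 5000 lux (SE 0.25, limma adjusted p = 0.184). Nsdhl, which works with Msmo1 to remove the methyl groups at carbon 4, changed by 0.48 at 2500 lux in wild-type retinas (SE 0.19, limma adjusted p = 0.13). Lss and Msmo1, lanosterol synthase and sterol methyl oxidase, changed by between -0.16 and 0.29. Over all roles, 23 of the 26 members not called at 2500 lux in wild-type retinas changed by less than 0.5, as did 24 of 26 at 5000 lux, and all of those not called in knockout retinas, 23 at 2500 lux and 25 at 5000 lux. The 95% interval lay within 1 log2 unit of no change for 24, 25, 23 and 25 of them in the same order. Changes smaller than these intervals were not resolved with 2 or 3 arrays a group.

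**Figure D3:**
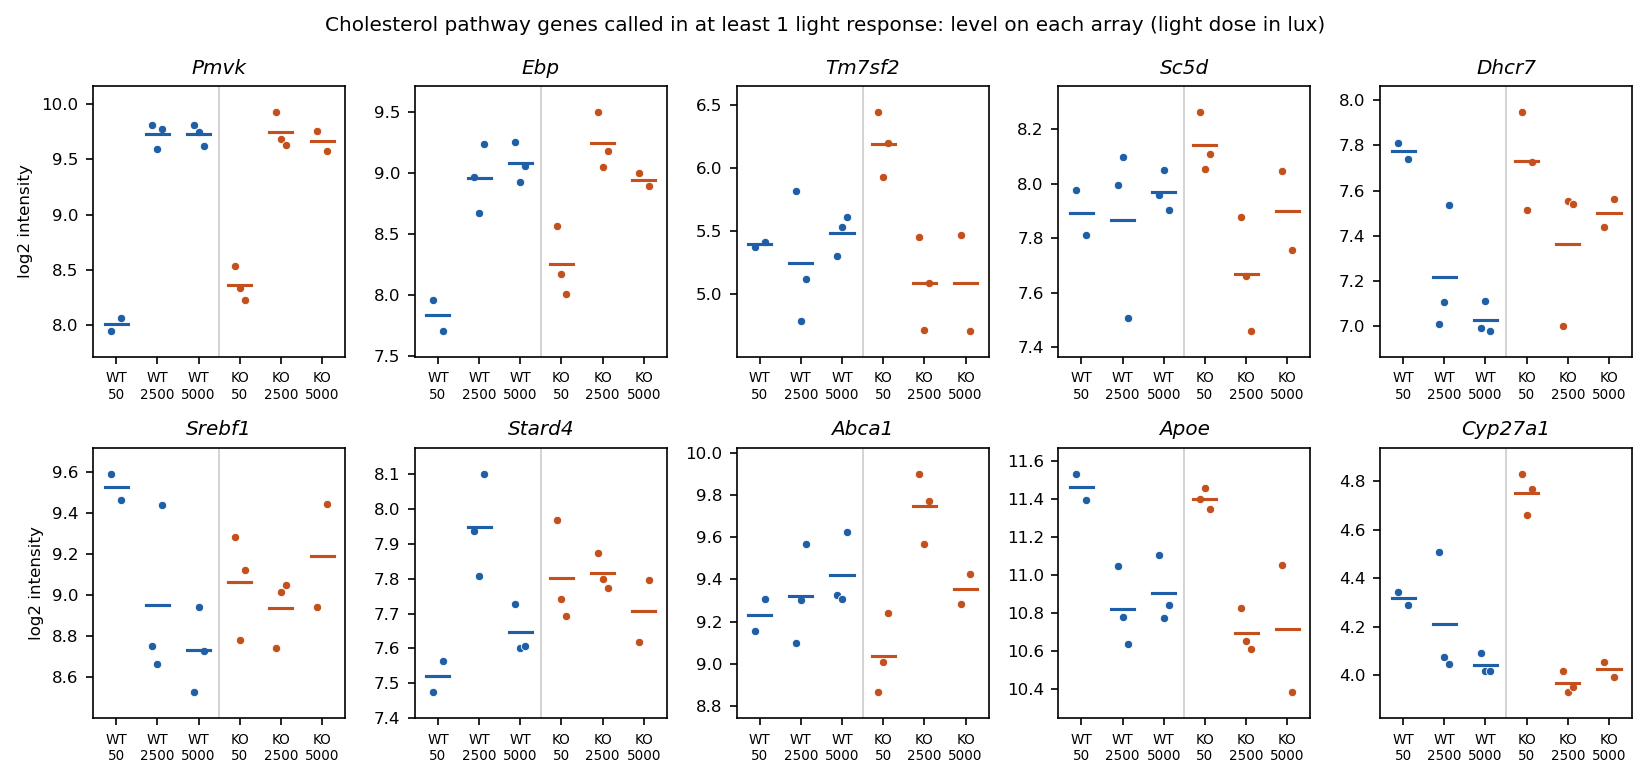
Log2 intensity on each array of the 10 genes called in at least 1 light response, by genotype (WT wild type, KO knockout) and light dose in lux; points are arrays, bars group means, and each panel has its own axis range. Pmvk and Ebp sit higher at 2500 and 5000 lux in both genotypes, Apoe sits lower, and Tm7sf2 and Cyp27a1 stand highest on the 3 knockout arrays at 50 lux.

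Of the 4 sterol-sensing regulators only Srebf1 was called, and only at 5000 lux in wild-type retinas. Srebf1 encodes SREBP-1, the member of the family best known for fatty acid synthesis. It read 9.59 and 9.46 at 50 lux, 8.75, 8.66 and 9.44 at 2500 lux, and 8.53, 8.94 and 8.73 at 5000 lux in wild-type retinas. On the knockout arrays it read 9.28, 8.78 and 9.13 at 50 lux, 8.74, 9.02 and 9.05 at 2500 lux, and 8.94 and 9.44 at 5000 lux. The wild-type groups at 50 and 5000 lux were apart, while the knockout groups overlapped at all doses. Srebf1 fell 1.74-fold at 5000 lux in wild-type retinas (log2 -0.80, SE 0.24, limma adjusted p = 0.0468) and changed by 0.13 in the knockout. The difference between these responses was 0.92 (95% interval 0.21 to 1.64, limma adjusted p = 0.553), not called. The wild-type call held under 14 of 26 alternatives. It was lost, at -0.86 to -0.69, without any 1 of 9 arrays: both wild-type 50 lux arrays, wild-type 2500 lux replicate 1, wild-type 5000 lux replicates 1 and 3, knockout 50 lux replicate 3 and the 3 knockout 2500 lux arrays.

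Srebf2, which encodes SREBP-2, the main activator of cholesterol synthesis genes, changed by between -0.29 and -0.26 in the 4 responses, with limma adjusted p from 0.12 to 0.265. On its brightest probe set both knockout 5000 lux arrays read the same log2 7.59 (SD 0). The same value was the highest in each of the other groups at 2500 and 5000 lux. Values repeated exactly across arrays limit what these changes can show. The second probe set of Srebf2 was called lower in knockout retinas at 5000 lux (log2 -0.67, limma adjusted p = 0.0326). Insig1, itself switched on by SREBP, had a mean log2 level of 8.41 ± 0.07 (SD, n = 2), 8.56 ± 0.37 (n = 3) and 8.51 ± 0.16 (n = 3) at 50, 2500 and 5000 lux in wild-type retinas. In knockout retinas it was 8.46 ± 0.21 (n = 3), 8.65 ± 0.15 (n = 3) and 8.48 ± 0.55 (n = 2). Its changes, between 0.02 and 0.19, were not called and lay within the range of its replicate SDs. Insig2, which is not an SREBP target in most tissues, changed by between -0.24 and 0.09.

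Among the genes that move cholesterol inside the cell, Stard4 was called once. Stard4 encodes a soluble sterol carrier. It read 7.48 and 7.56 at 50 lux, 7.94, 7.81 and 8.10 at 2500 lux, and 7.73, 7.60 and 7.61 at 5000 lux in wild-type retinas. The corresponding knockout values were 7.97, 7.74 and 7.69 at 50 lux, 7.87, 7.80 and 7.77 at 2500 lux, and 7.62 and 7.80 at 5000 lux. Only the wild-type group at 2500 lux stood clear of its 50 lux reference by more than 0.2 log2 units, and knockout groups overlapped. Stard4 rose 1.35-fold there (log2 0.43, SE 0.12, limma adjusted p = 0.034). The call was lost without either wild-type 50 lux array or wild-type 2500 lux replicate 1 or 3 (log2 0.35 to 0.47), and the second probe set changed by 0.13 (limma adjusted p = 0.637). In knockout retinas the brightest probe set was not called, the third was called higher at 2500 lux (log2 0.80, limma adjusted p = 0.015) and the second lower at 5000 lux (log2 -0.54, limma adjusted p = 0.0289), so the probe sets of this gene disagree. Npc1 and Npc2, which hand cholesterol out of the lysosome, were not called. Npc1 changed by -0.04 and 0.16 in wild-type and by -0.32 and -0.24 in knockout retinas. Npc2, which microglia also express, changed by 0.41 at 2500 lux in wild-type retinas (SE 0.15, limma adjusted p = 0.104) and by between -0.02 and 0.21 in the other 3.

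Efflux and oxidation had 5 measured members: Apoe and Cyp27a1 were lower, Abca1 higher, and Abcg1 and Cyp46a1 not called. Apoe, the main lipid carrier protein of the retina, read 11.53 and 11.40 at 50 lux, 11.05, 10.78 and 10.64 at 2500 lux, and 11.10, 10.77 and 10.84 at 5000 lux in wild-type retinas. Knockout levels were 11.40, 11.46 and 11.35 at 50 lux, 10.82, 10.65 and 10.61 at 2500 lux, and 11.05 and 10.38 at 5000 lux. All 11 arrays at the higher doses lay below all 5 arrays at 50 lux. Apoe fell 1.56-fold at 2500 lux in wild-type retinas (log2 -0.64, SE 0.18, limma adjusted p = 0.0354), and its change of -0.56 at 5000 lux was not called (limma adjusted p = 0.0699). In knockout retinas it fell 1.63-fold at 2500 lux (log2 -0.71, SE 0.16, limma adjusted p = 0.00788) and 1.61-fold at 5000 lux (log2 -0.69, SE 0.18, limma adjusted p = 0.0291). The genotypes' responses differed by -0.06 (95% interval -0.59 to 0.46) and -0.13 (-0.68 to 0.42). The knockout call at 2500 lux held under all 26 alternatives. The wild-type call was lost, at -0.71 to -0.55, without either 50 lux array, wild-type 2500 lux replicate 2 or 3, or knockout 2500 lux replicate 2. The knockout call at 5000 lux was lost without knockout 50 lux replicate 1 or 2, and without knockout 5000 lux replicate 2 the change was -0.35. Pigment epithelium markers, whose cells also make apoE, had lower sums at 5000 lux than at 50 lux, as given above, and their part in the fall was not tested. Of 12 Müller glia markers, 4 were called higher and 3 lower in wild-type retinas at each dose, and in knockout retinas 3 higher and 3 lower at 2500 lux and 2 higher and 3 lower at 5000 lux. Of all genes, 8.93% were higher and 5.13% lower in wild-type retinas at 2500 lux, and 7.56% and 5.27% at 5000 lux. Knockout shares were 8.87% and 13.5% at 2500 lux and 4.60% and 7.81% at 5000 lux. On every wild-type array at the higher doses Glul and Rlbp1 lay below, and Slc1a3 above, both 50 lux arrays. The part of Müller glia in the fall of Apoe was not tested.

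Cyp27a1 encodes a mitochondrial enzyme that oxidises the cholesterol side chain. Knockout retinas gave 4.83, 4.66 and 4.76 at 50 lux, 4.02, 3.93 and 3.95 at 2500 lux, and 4.06 and 3.99 at 5000 lux. In wild-type retinas it read 4.34 and 4.29 at 50 lux, 4.51, 4.08 and 4.04 at 2500 lux, and 4.09, 4.02 and 4.02 at 5000 lux. The 3 knockout arrays at 50 lux were the highest of the 16, and all values lay close to the level of log2 4 set for testing, where background correction compresses differences. Cyp27a1 fell 1.72-fold at 2500 lux (log2 -0.78, SE 0.12, limma adjusted p = 0.000369) and 1.66-fold at 5000 lux (log2 -0.73, SE 0.13, limma adjusted p = 0.00417) in knockout retinas. In wild-type retinas it changed by -0.11 and -0.27, not called. The responses differed by -0.68 at 2500 lux (95% interval -1.05 to -0.30, limma adjusted p = 0.295) and by -0.45 at 5000 lux (limma adjusted p = 0.587), so a difference between genotypes was not shown. The call at 2500 lux held under all 25 alternatives, and that at 5000 lux was lost without knockout 5000 lux replicate 2 (log2 -0.70, limma adjusted p = 0.0509) and without the 4 lens-bearing arrays (log2 -0.66, limma adjusted p = 0.171). Cyp46a1, the neuronal cholesterol 24-hydroxylase, lay between 4.40 and 4.94 on all arrays and changed by between -0.09 and 0.27.

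Abca1, the transporter that loads cholesterol onto apolipoproteins, rose in knockout retinas at 2500 lux. Its brightest probe set read 8.86, 9.01 and 9.24 at 50 lux, 9.90, 9.57 and 9.77 at 2500 lux, and 9.28 and 9.43 at 5000 lux in knockout retinas. In wild-type retinas it read 9.15 and 9.31 at 50 lux, 9.10, 9.30 and 9.57 at 2500 lux, and 9.32, 9.31 and 9.62 at 5000 lux. The knockout group at 2500 lux lay above its reference, and the wild-type groups overlapped. The rise was 1.64-fold (log2 0.71, SE 0.15, limma adjusted p = 0.00436) and held under all 27 alternatives. All 3 probe sets of Abca1 were called there: the second rose by log2 1.19 (SE 0.25, limma adjusted p = 0.00468), and the dimmest, below log2 4 on every knockout array at 50 lux, rose at least 1.30-fold (limma adjusted p = 0.00153). At 5000 lux the brightest changed by 0.32 (limma adjusted p = 0.217) and the second by 0.91 (limma adjusted p = 0.0516), and the dimmest was called, higher by at least 1.15-fold (limma adjusted p = 0.0153). In wild-type retinas the 2 brighter probe sets changed by 0.09 and -0.32 at 2500 lux, and none of the 3 was called. The response in the knockout exceeded that in wild type at 2500 lux by 0.62 on the brightest (95% interval 0.14 to 1.10) and by 1.52 on the second (0.70 to 2.33). Neither difference was called (limma adjusted p = 0.446 and 0.276), and the probe sets were read on the same arrays, so they are not independent samples. No difference is given for the dimmest, which lay below log2 4 on every knockout array at 50 lux and every wild-type array at 2500 lux. The 2 brighter probe sets had their lowest group mean in knockout retinas at 50 lux. The brightest averaged log2 9.04 there, beside 9.23 in wild-type retinas at the same dose. The second read 4.65, 5.65 and 4.69 there, beside 5.88 and 6.43 in wild-type retinas at that dose. Microglia also express Abca1. In knockout retinas at 2500 lux 2 of 8 microglia and macrophage markers were called higher and 1 lower, against 8.87% and 13.5% of all genes. The part of these markers' cells in the rise of Abca1 was not tested. Abcg1, which passes cholesterol to lipoprotein particles already formed, changed by -0.28 and -0.19 in wild-type and by -0.22 and -0.16 in knockout retinas, not called, and its second probe set was called lower in knockout retinas at 2500 lux (log2 -1.05, limma adjusted p = 0.00943).

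**Figure D4:**
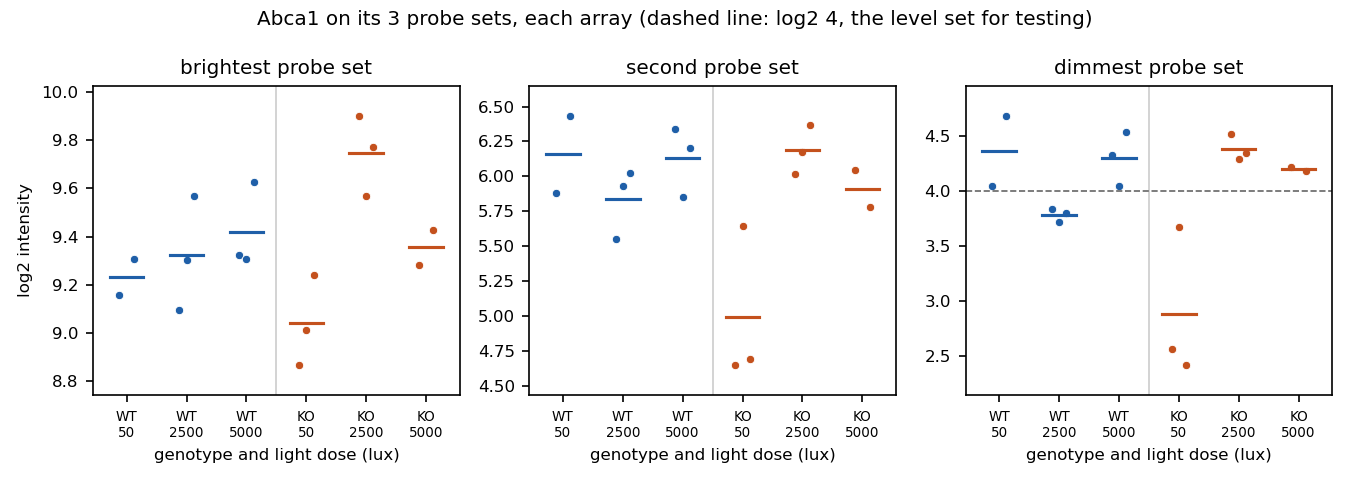
Log2 intensity of the 3 Abca1 probe sets on each array, by genotype (WT wild type, KO knockout) and light dose in lux; points are arrays, bars group means, and each panel has its own axis range. On each probe set the 3 knockout arrays at 2500 lux lie above the 3 knockout arrays at 50 lux, while in wild-type retinas no probe set was called.

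The step from 2500 to 5000 lux asked whether more light changed the list further. No member was called in either genotype by limma, where 0% of all genes were called in wild type and 0.119% in the knockout. At an unadjusted p below 0.05 there were 2 members in wild-type retinas, Hmgcs1 (log2 -0.29) and Stard4 (log2 -0.30), and 1 in the knockout, Abca1 (log2 -0.39, SE 0.17), where 7.87% and 13.7% of all genes reached that level. The changes of all 30 members lay between -0.33 and 0.24 in wild-type and between -0.39 and 0.26 in knockout retinas. The 95% intervals of all 30 lay within 1 log2 unit of no change in both genotypes.

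Knockout and wild-type retinas were compared at each dose to see whether loss of Nxnl1 alone shifted the pathway. No member was called at 50, 2500 or 5000 lux, where 0.403%, 0.137% and 0.00916% of all genes were called. At 50 lux 24 of the 30 members were higher in knockout retinas, with a median log2 difference of 0.20, where 72.2% of all genes were higher with a median of 0.12. Without knockout 50 lux replicate 1, the array with the highest lens sum in that group, the members' median was 0.11. Leaving out the 4 lens-bearing arrays gives the same value and is no second check, since only that array of them enters this comparison. Knockout 50 lux replicates 2 and 3, at lens sums of 2561 and 1925, stayed in. No median of all genes is given without replicate 1. All 7 mevalonate genes and 9 of the 11 genes between squalene and cholesterol were on the higher side. At an unadjusted p below 0.05 there were 8 members, all higher in knockout retinas, against 14.5% of all genes: Pmvk (0.36), Fdft1 (0.48), Sqle (0.39), Cyp51 (0.42), Tm7sf2 (0.79), Npc1 (0.40), Stard4 (0.28) and Cyp27a1 (0.43), with limma adjusted p from 0.179 to 0.31. The wild-type reference had 2 arrays, and the 3 knockout arrays of this comparison held lens marker sums of 1925 to 7832 beside 68.95 and 175.7 in wild type. At 2500 and 5000 lux the median differences were -0.03 and 0.0068, and 1 member each reached an unadjusted p below 0.05, Abca1 (0.43) and Dhcr7 (0.47), against 6.89% and 1.73% of all genes.

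**Figure D5:**
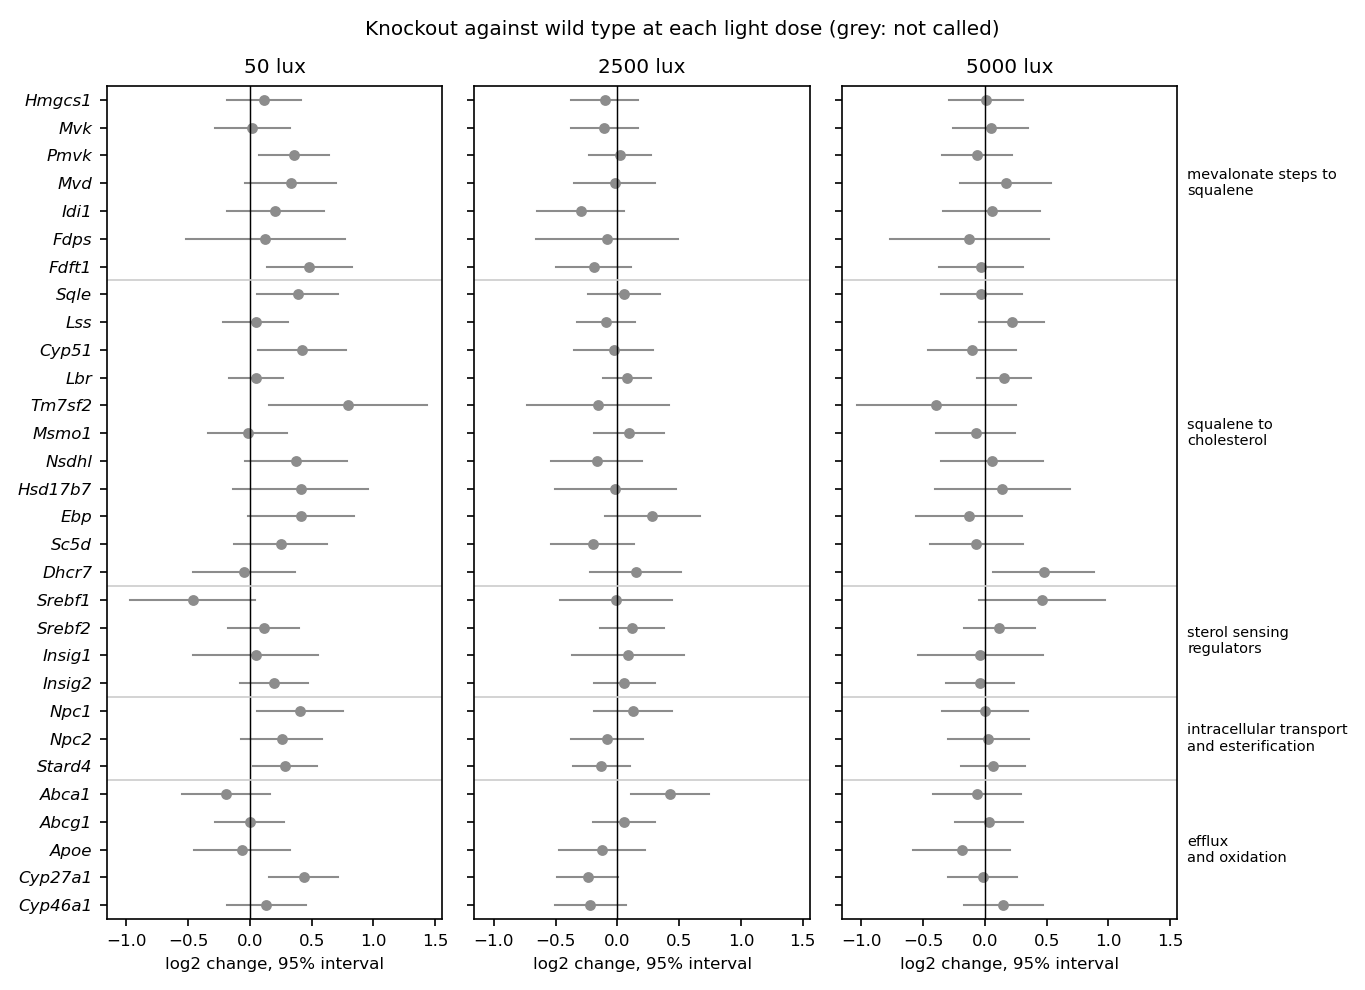
Log2 difference of knockout minus wild type for each of the 30 genes at 50, 2500 and 5000 lux, with 95% intervals from the fit, unadjusted for the number of genes; grey points were not called. At 50 lux 24 of 30 points lie to the right of 0, led by Tm7sf2 at 0.79, and at the higher doses the points lie on both sides.

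The difference between the genotypes' light responses was tested directly as an interaction. No member was called at 2500 or 5000 lux, where 0.0641% and 0.0366% of all genes were called. The median interaction of the 30 members was -0.25 at 2500 lux and -0.19 at 5000 lux, knockout minus wild type, where that of all genes was -0.13 and -0.12. At an unadjusted p below 0.05 there were 5 members at 2500 lux (Fdft1, Tm7sf2, Stard4, Abca1, Cyp27a1) and 6 at 5000 lux (Pmvk, Fdft1, Cyp51, Tm7sf2, Srebf1, Cyp27a1), against 9.53% and 8.5% of all genes. Of these, Abca1 and Srebf1 were positive and the others negative. These interactions subtract the 50 lux difference described above, so both comparisons rest on the same 5 arrays at 50 lux. The median at 5000 lux was 0.03 without the 4 lens-bearing arrays, 0.0023 without knockout 5000 lux replicate 2 and -0.36 without knockout 5000 lux replicate 1.

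A wider list of 30 cholesterol genes outside the members, covering receptors, lipases, carriers and further transporters, had 17 tested. In wild-type retinas at 2500 lux 3 were higher and 1 lower, where 8.93% and 5.13% of all genes were. At 5000 lux 0 were higher and 3 lower, against 7.56% and 5.27%. In knockout retinas 0 were higher and 4 lower at 2500 lux, against 8.87% and 13.5%, and 0 higher and 1 lower at 5000 lux, against 4.60% and 7.81%. With 17 genes, these counts are no result about the list as a whole. Scarb1, the receptor that takes up cholesterol from high-density lipoprotein, read 10.63 and 10.52 at 50 lux, 9.97, 10.02 and 10.07 at 2500 lux, and 9.71, 10.13 and 9.83 at 5000 lux in wild-type retinas. It fell by 0.56 (SE 0.13, limma adjusted p = 0.0139) and by 0.68 (SE 0.13, limma adjusted p = 0.00432) there, and by 0.51 (SE 0.12, limma adjusted p = 0.0077) in knockout retinas at 2500 lux, while the change at 5000 lux, -0.35, was not called (limma adjusted p = 0.0938). The wild-type fall at 2500 lux was lost without either wild-type 50 lux array (log2 -0.62 and -0.50), and that at 5000 lux without wild-type 50 lux replicate 1 (log2 -0.62, limma adjusted p = 0.064). The knockout fall was kept whichever array was left out. Of the lipases and hydrolases, 3 were called higher in wild-type retinas at 2500 lux. Lpl, lipoprotein lipase, rose by 1.29 (SE 0.32, limma adjusted p = 0.0189), Lipa, the lysosomal acid lipase, by 0.56 (limma adjusted p = 0.0271), and Nceh1, a cholesteryl ester hydrolase, by 0.54 (limma adjusted p = 0.0259). On its second brightest probe set Lipa changed by 0.05 (limma adjusted p = 0.89). That of Nceh1 changed by 0.33 (limma adjusted p = 0.302), and neither was called. Each of the 3 calls was lost without either wild-type 50 lux array, that of Lpl also without wild-type 2500 lux replicate 2, that of Lipa without replicate 3 and that of Nceh1 without replicate 1 or 3. Macrophages also express Lpl and Lipa, and 5 of 8 microglia and macrophage markers were called higher in the same comparison; their part in these rises was not tested. In knockout retinas at 5000 lux Lipa fell by 0.50 (limma adjusted p = 0.0493), a call lost without any 1 of 12 arrays (log2 -0.55 to -0.36). These were both wild-type 50 lux arrays, wild-type 2500 lux replicates 1 and 2, wild-type 5000 lux replicate 2, all 3 knockout arrays at 50 and at 2500 lux and knockout 5000 lux replicate 2. The second probe set of Lipa changed by -0.44 in that comparison (limma adjusted p = 0.088), not called.

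In wild-type retinas at 5000 lux the endocytic receptor gene Lrp2 fell by 0.81 and the neuronal transporter gene Abcg4 by 0.94. The call of Lrp2 was lost without wild-type 50 lux replicate 1 or wild-type 5000 lux replicate 1 or 3 (log2 -0.80 to -0.46). That of Abcg4 was lost without wild-type 50 lux replicate 1 or wild-type 5000 lux replicate 3 (log2 -0.89 and -0.75). In knockout retinas at 2500 lux Abcg4 fell by 0.91, though its second probe set changed by -0.03. The very-low-density lipoprotein receptor gene Vldlr fell by 0.49 in that group, a call kept whichever array was left out. The transporter gene Abca7 fell by 0.46 there, a call lost without knockout 50 lux replicate 1 or 3 or knockout 2500 lux replicate 1 or 2 (log2 -0.50 to -0.37).

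A list of 13 genes of sterol control had 10 tested, which were SREBP processing and sterol-dependent degradation genes, the bile acid receptor gene Nr1h4 and the RXR genes Rxra and Rxrb, but no LXR gene. In each of the 4 light responses 0 were higher and 1 lower, near the 5.13% to 13.5% of all genes that were lower. That gene was Rxra, the RXR partner of LXR and of the retinoic acid receptors. It read 7.76 and 7.45 at 50 lux, 6.69, 6.56 and 6.59 at 2500 lux, and 6.58, 7.0 and 6.59 at 5000 lux in wild-type retinas. The knockout arrays read 7.46, 7.45 and 7.77 at 50 lux, 6.63, 6.72 and 6.69 at 2500 lux, and 6.93 and 6.92 at 5000 lux. All 11 arrays at the higher doses lay below all 5 arrays at 50 lux. Rxra changed by -0.99 (SE 0.15, limma adjusted p = 0.000704) and -0.88 (SE 0.15, limma adjusted p = 0.00172) in wild-type retinas and by -0.88 (SE 0.13, limma adjusted p = 0.000435) and -0.64 (SE 0.15, limma adjusted p = 0.0171) in knockout retinas. The call at 5000 lux in the knockout was lost without knockout 5000 lux replicate 2 (log2 -0.63, limma adjusted p = 0.12).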

How the data were processed

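RNA of whole mouse neural retina was measured on 16 Affymetrix expression arrays. The deposited table holds intensities on a linear scale, which the authors made with GCRMA, per the submitters' processing notes. The sources used here give no GCRMA version or settings. GCRMA subtracts background modelled from probe sequence and so draws dim values together at a shared lowest intensity of 4.62 (log2 2.21). Some probe sets, such as those of Cx3cr1, Mvk, Mvd and Srebf2, also repeated an identical value across arrays above that intensity. The deposited intensities were not normalized again, and log2 was taken.

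Probe sets were named by GEO's platform annotation: of 45037, 34945 carried 1 symbol, 932 several and 9160 none. The 23320 probe sets above log2 4 on at least 2 arrays were fitted in limma 3.58.1 (R 4.3.3) with 6 group means and eBayes without trend (10 residual and 3.18 prior degrees of freedom). All 11 contrasts were taken from that fit, and p-values were adjusted by Benjamini-Hochberg over all probe sets tested, with calls at 0.05. Shares of all genes use 1 brightest probe set a gene. The p-values are two-sided and cover the spread between these arrays, whose number limits the precision. A probe set below log2 4 on every array of a group has only a bound there: its fold is written as at least the bright group's mean over log2 4.

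Samples were grouped by their titles. Members and gene lists were chosen with earlier results of these data known. Values on every array are given for the members called in at least 1 light response or genotype comparison; of other genes, up to 5 with the smallest p per list and light response are named. Alternatives changed the filter, the normalization, the variance moderation, array weights, the arrays in the fit, the probe set and the pseudocount, or left out 1 array at a time. Promoter windows came from RefSeq (GRCm38.p6). The fit was tested on simulated data before use.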

Additional observations from a re-analysis of the deposited data

How the results depend on the processing

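No count of called members moved by over 1.5 times under the stricter filter (log2 6), trended and robust variance moderation, median centring or log2(intensity + 16). Under these settings no median moved by more than 0.102. That value is the SD between replicate arrays of the members' median log2 level, pooled over 6 groups. With no filter, 0 members were called lower in wild-type retinas at 2500 lux and 0 at 5000 lux, and 1 higher and 1 lower in knockout retinas at 5000 lux. With quantile normalization 1 was lower in wild-type retinas at 5000 lux. With array weights 2 were lower at 2500 lux and 5 at 5000 lux in wild-type retinas, 1 higher and 1 lower in knockout retinas at 5000 lux, and the median difference in the 5000 lux response was -0.050. Fitting only the groups compared gave 0 lower in wild-type retinas at 2500 lux and 1 higher and 0 lower in knockout retinas at 5000 lux; fewer arrays then estimate the spread. On each gene's second brightest probe set, 0 higher and 0 lower were called in wild-type retinas at both doses, 1 higher and 2 lower in knockout retinas at 2500 lux with a median of -0.22, and 0 higher at 5000 lux, with a median dose step of -0.10 in the knockout. On that probe set Sc5d reversed to 0.11. Without the 4 lens-bearing arrays, a choice made after seeing the data, 0 were lower in wild-type retinas at 5000 lux, 2 lower in knockout retinas at 2500 lux, and 1 higher and 0 lower in knockout retinas at 5000 lux with a median of -0.0060. The median genotype difference at 5000 lux was then 0.11 and that in the 5000 lux response 0.027. The cause of these differences was not tested.

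With single arrays left out, the count of lower members ran from 0 to 2 in wild-type retinas at 2500 lux, from 0 to 3 at 5000 lux, from 2 to 5 in knockout retinas at 2500 lux and from 0 to 5 at 5000 lux, where higher members ran from 1 to 2. Median changes ran from -0.16 to 0.10 for the dose step in the knockout, from -0.14 to 0.13 for the genotype difference at 5000 lux, and from -0.36 to 0.0023 for the difference in the 5000 lux response. Counts of higher members kept within 1.5 times in the other responses under these settings.

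Groups share replicate numbers in the labels, but same-numbered arrays had deviations correlated at a median of 0.175 over 36 pairs (range -0.238 to 0.693, 21 above 0.1). Arrays of different number had a median of -0.11 over 70 pairs, 13 above 0.1. Set against each other group in turn, an array correlated best with its own number in 46 of 72 cases. Deviations were taken from group means, so those of a group of 2 arrays are exact opposites. No chance level was computed for these cases. The correlations are a hint from the data of shared replicate effects. Not every pair exceeded 0.1 and the labels state no pairing, so the fit reported has no block. With the replicate number as a block, 4 members were higher and 1 lower in wild-type retinas at 2500 lux, 3 and 3 at 5000 lux, 4 and 5 in knockout retinas at 2500 lux, and 2 and 5 at 5000 lux. Every member called without the block stayed called. No 2 arrays were identical, and arrays of a group correlated at 0.9676 to 0.9947. With 2 arrays in a group, and intensities near the background floor for Cyp27a1, Cyp46a1 and Tm7sf2, small changes were not resolved. Mvk and Mvd were about as dim as Tm7sf2, at mean log2 levels of 5.46 and 5.55 beside 5.44. Their brightest probe sets also repeated identical values across arrays, so the same limit holds for them.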

Other observations

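Of the genes of fatty acid synthesis under SREBP, a few were called lower after bright light and none higher, at shares that are no result about the list. Of 16 listed genes 15 were tested, and by limma 0 were higher and 2 lower in wild-type retinas at 2500 lux, 0 and 0 at 5000 lux, 0 and 3 in knockout retinas at 2500 lux and 0 and 3 at 5000 lux, where 5.13%, 5.27%, 13.5% and 7.81% of all genes were lower. Their median log2 changes were -0.10, -0.27, -0.28 and -0.26 in that order, beside 0.04, 0.0040, -0.08 and -0.09 for all genes. Me1, the malic enzyme that supplies NADPH for lipid synthesis, read 9.56 and 9.44 at 50 lux, 9.21, 8.94 and 8.80 at 2500 lux, and 9.12, 9.10 and 8.89 at 5000 lux in wild-type retinas. In knockout retinas it read 9.57, 9.70 and 9.57, then 8.78, 8.74 and 8.73, then 9.12 and 8.71. All 11 arrays at the higher doses lay below all 5 arrays at 50 lux. Me1 fell by 0.51 (SE 0.14, limma adjusted p = 0.0346) at 2500 lux in wild-type retinas, and by 0.87 (SE 0.13, limma adjusted p = 0.00039) and 0.70 (SE 0.14, limma adjusted p = 0.00921) in knockout retinas. On the second probe set of Me1 the wild-type change at 2500 lux was -0.29 (limma adjusted p = 0.23), not called. The wild-type call was lost without either wild-type 50 lux array or replicate 2 or 3 of either 2500 lux group (log2 -0.57 to -0.42), and that at 5000 lux without knockout 5000 lux replicate 2 (log2 -0.50, limma adjusted p = 0.141).

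Pnpla3, which encodes a lipid droplet protein, fell by 1.05 in wild-type retinas (SE 0.26, limma adjusted p = 0.0192) and by 1.20 in knockout retinas (SE 0.23, limma adjusted p = 0.00279) at 2500 lux. The wild-type call was lost without either wild-type 50 lux array or wild-type 2500 lux replicate 3 (log2 -1.11 to -0.93), and the knockout call was kept whichever array was left out. Acsl3, a long-chain acyl-CoA synthetase, fell by 0.64 (SE 0.14, limma adjusted p = 0.00497) in knockout retinas at 2500 lux, and its fall of 0.51 at 5000 lux (limma adjusted p = 0.0462) held under 10 of 27 alternatives. It was lost without wild-type 2500 lux replicate 1, wild-type 5000 lux replicate 2 or 3, any knockout array at 50 or 2500 lux, or knockout 5000 lux replicate 2 (log2 -0.54 to -0.41). On the second probe set of Acsl3 the knockout change at 2500 lux was -0.44 (limma adjusted p = 0.115), not called. At 5000 lux it was -0.49 (limma adjusted p = 0.137), not called. Fads2, a fatty acid desaturase, fell by 0.83 in knockout retinas at 5000 lux (SE 0.18, limma adjusted p = 0.0103), but by 0.58 without knockout 5000 lux replicate 2 (limma adjusted p = 0.154), and its second probe set changed by -0.08. Fasn, fatty acid synthase, changed by between -0.06 and 0.14 and was not called.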
